A study of Mus musculus with 19 samples.

Results

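Angiosarcoma, a malignant tumor of endothelial cells, was compared with normal aorta on 11 arrays, 7 from tumors and 4 from aortas, out of 19 in the series. All 22180 genes with a probe set of their own were described. The 4 quadriceps femoris and 4 sternocleidomastoid arrays, skeletal muscles of thigh and neck, served as a further reference. Tumor-bearing mice had the genotype aP2-Cre/+;DicerFlox/-, in which Cre recombinase is driven by the promoter of aP2 (Fabp4), a gene active in adipocytes and in some endothelial cells, and acts on 1 floxed Dicer allele beside 1 null allele. Aortas and muscles came from wild type mice, all on a mixed strain of C57Bl/6 and 129X1/SvJ. No control array carried the Cre transgene or a mutant Dicer allele, so tissue and genotype cannot be told apart. The labels give no age, sex, treatment or batch, and do not say that samples of 1 group were separate animals. The p-values below therefore measure the spread between these samples only.

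A normal aorta has an intima lined by 1 layer of endothelium, a media of contractile smooth muscle and elastic sheets, and an outer adventitia with fibroblasts and nerves. Dissected aorta can carry neighbouring tissue, because brown fat surrounds the thoracic vessel, its root joins the heart, and serosal membranes cover it. Brown fat burns lipid for heat through the uncoupling protein Ucp1, whereas white fat stores lipid.

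The median of an array was 5.347 to 5.477 log2 units, and precision is limited by the number of arrays. A group mean under 5.347, the lowest array median, is called dim below. Dicer1, the targeted RNase of microRNA maturation, had means of 8.53 in tumors and 8.23 in aortas (limma adjusted p = 0.0714), and the sources used here do not say where its probes lie relative to the floxed part. Fixed endothelial markers were high in tumors: Pecam1, Cdh5, Kdr and Tek passed the test upward and Vwf, the clotting factor of endothelial granules, did not (8.35 against 8.21, limma adjusted p = 0.792). Without tumors 1, 2, 4 and 7 Vwf was lower in tumors (-0.76, limma adjusted p = 0.0021). The summed level of these 5 markers, as a mean over genes, was 10.27 to 10.93 in tumors and 8.98 to 9.10 in aortas. Because whole tissue was measured, fewer cells of a type and less RNA per cell cannot be told apart in any result below.

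With limma over all 4 groups and a Benjamini-Hochberg adjusted p under 0.05, 4131 genes were higher in tumors (18.6% of genes tested) and 3892 were lower (17.5%). With arrays centred on housekeeping genes the counts were 3186 higher and 4738 lower, so that 40.2% in place of 51.5% of called genes were higher. That scaling moved the median difference of all genes from -0.022 to -0.113 log2 units. Tumor and aorta arrays did not overlap for 5250 genes, 23.7% of those tested.

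The muscle arrays divided the genes past a 2-fold difference into patterns, each of which also required a 2-fold difference from both muscles with adjusted p under 0.05. Of 1261 genes that rose 2-fold, 1044 were also higher in tumors than in both muscles (82.8% of them, 4.71% of all genes tested). In 47 genes aorta was low against tumors and both muscles (3.7%, and 0.212% of all genes). Of 1308 genes that fell 2-fold, 562 were also lower in tumors than in both muscles (43.0%, and 2.53% of all genes), a pattern shared by aorta and muscle. Another 381 were higher in aorta than in tumors and both muscles (29.1%, and 1.72% of all genes). The remaining 365 lower and 170 higher genes met none of these patterns. The contrasts share the tumor and aorta arrays, so the patterns sort genes and are not separate tests. Most genes of these patterns stood outside the named lists: 962 of the 1044 and 327 of the 381 genes were in no list used here.

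The muscles themselves were not free of fat, which set how far they could serve as a reference. Ucp1 ranged from 9.99 to 11.73 on the 4 sternocleidomastoid arrays, and was 4.68, 4.89 and 4.89 in quadriceps 1 to 3 but 9.07 in quadriceps 4. In aortas 1 to 4 it was 12.77, 12.67, 12.78 and 12.86, and in tumors the lowest, median and highest values were 4.39, 4.77 and 11.08. Tumors 4 and 5 held the high values (11.08 and 10.47), and the other tumors lay at or below 4.81. The tumor minus aorta difference was -6.35 ± 1.21 log2 units (SE; limma adjusted p = 0.000337) and all 7 tumors were under all aortas. The lipid droplet protein Cidea had the same order, with 11.91, 11.89, 11.92 and 12.19 in aortas, a tumor median of 4.70 and a highest tumor value of 9.99. Neither gene met the pattern of aorta over tumor and both muscles: aorta exceeded sternocleidomastoid by 1.55 for Ucp1 and 1.92 for Cidea, but the difference did not pass the test (limma adjusted p = 0.461 and 0.248). Every aorta still lay above every sternocleidomastoid array, the highest of which was 11.73 for Ucp1 and 10.68 for Cidea. The test uses 1 spread per gene over all 4 groups, to which the wide tumor values add.

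Over the 16 brown adipocyte genes, sternocleidomastoid exceeded quadriceps by a median of 1.21 log2 units, and by at least 0.5 in 11. In contrast the median was -0.06 for 18 heart muscle genes, with 3 at 0.5 or more, and 0.13 for 21 smooth muscle contractile genes, with 2. Among all genes the median was 0.00 and 2.06% reached 0.5. This difference uses neither tumor nor aorta arrays. It gave a scale on which the medians of brown fat genes and of heart and vessel wall genes lay apart. White and general adipocyte genes lay between, with a median of 0.45 and 7 of 18 at 0.5 or more.

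**Figure D1:**
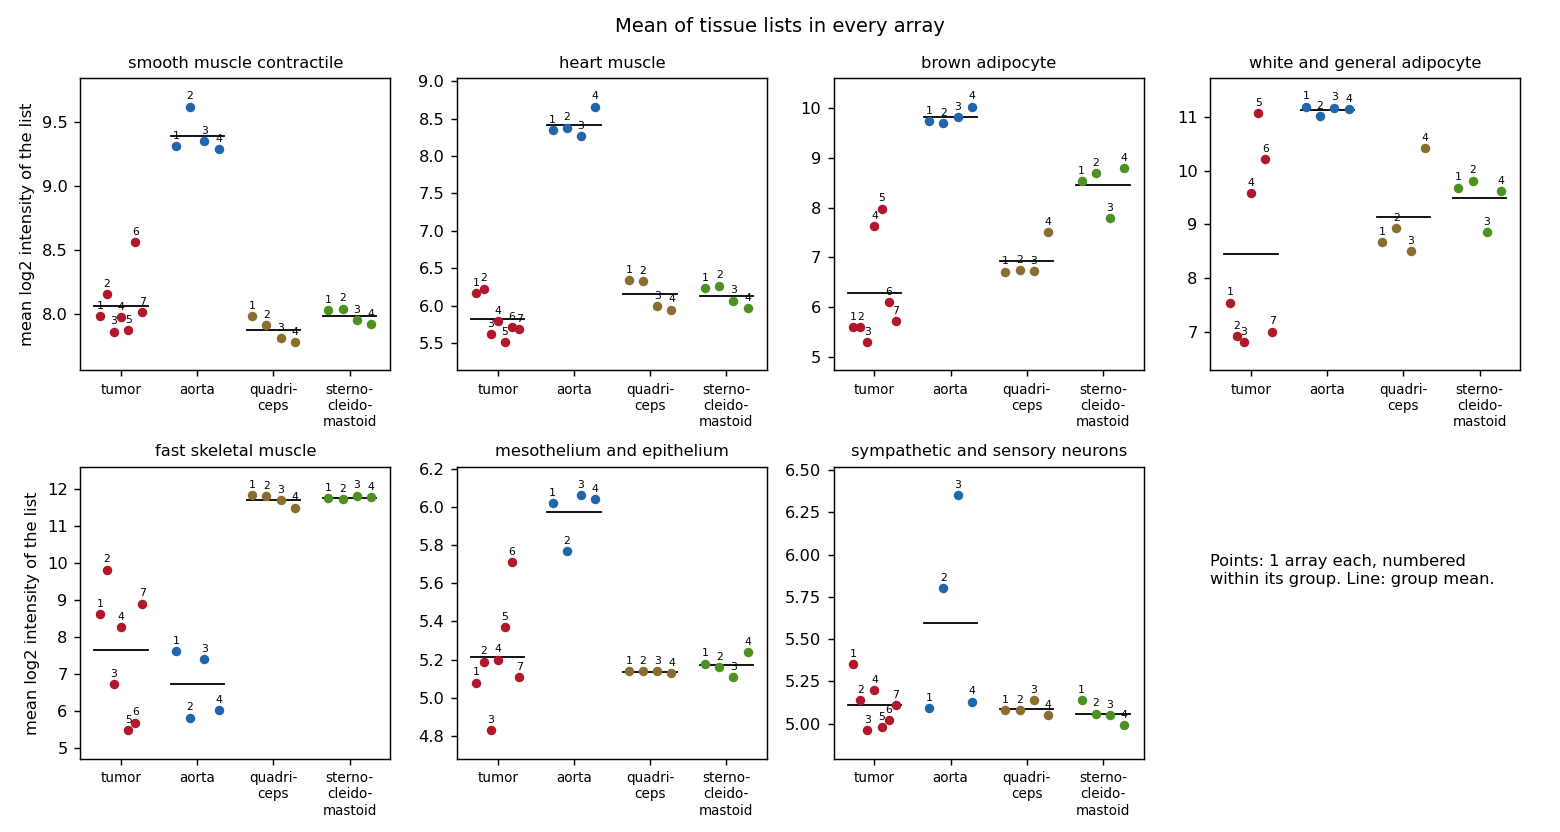
Mean log2 intensity (y axis) of the genes of 7 tissue lists on each of the 19 arrays, by group (x axis), with each point numbered within its group and the group mean as a line. The brown adipocyte mean was 9.70 to 10.03 in aortas and 7.78 to 8.79 in sternocleidomastoid, while the heart muscle mean was 8.27 to 8.66 in aortas and at most 6.34 on all other arrays.

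On this scale, 97 of the 381 aorta genes (25.5%) had a sternocleidomastoid minus quadriceps difference of at least 0.5, against 2.06% of all genes, although the pattern itself had required aorta to exceed sternocleidomastoid. The 9 brown adipocyte genes of the pattern included 8 past 0.5, led by Elovl3, a fatty acid elongase of brown fat (2.36), Slc27a2, a fatty acid transporter (2.20), and Elovl6 (2.02). The exception was Prdm16, a regulator of brown fat identity (-0.01). The scale had been read from this same list, in which 11 of 16 genes reached 0.5, so the 8 of 9 are not separate evidence for it. Of 9 heart muscle genes only sarcolipin, Sln, passed 0.5 (0.64), and of 6 smooth muscle and 7 mesothelial genes none did. Of 3 white and general adipocyte genes Pparg did (1.07), but Lipe (0.23) and Mrap (0.47) did not. The side under 0.5 was therefore not free of fat genes. With quadriceps alone as the muscle reference, which had the lower brown adipocyte signal, the pattern grew from 381 to 498 genes and took in 11 brown adipocyte genes. With sternocleidomastoid alone it held 399 genes. These references and the value of 0.5 were chosen after the data were seen.

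The 97 genes past 0.5 had a median range over the 7 tumors of 1.97 log2 units, and the other 284 one of 1.40. Tumor 5 was the highest tumor for 71 of the 97 genes and for 169 of the 284, against 15.3% of all genes tested. This tumor had a white and general adipocyte list mean of 11.07, within the 11.01 to 11.19 of the aortas, while tumors 2, 3 and 7 lay at 7.0 or less. The part of fat in each difference was not tested.

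**Figure D2:**
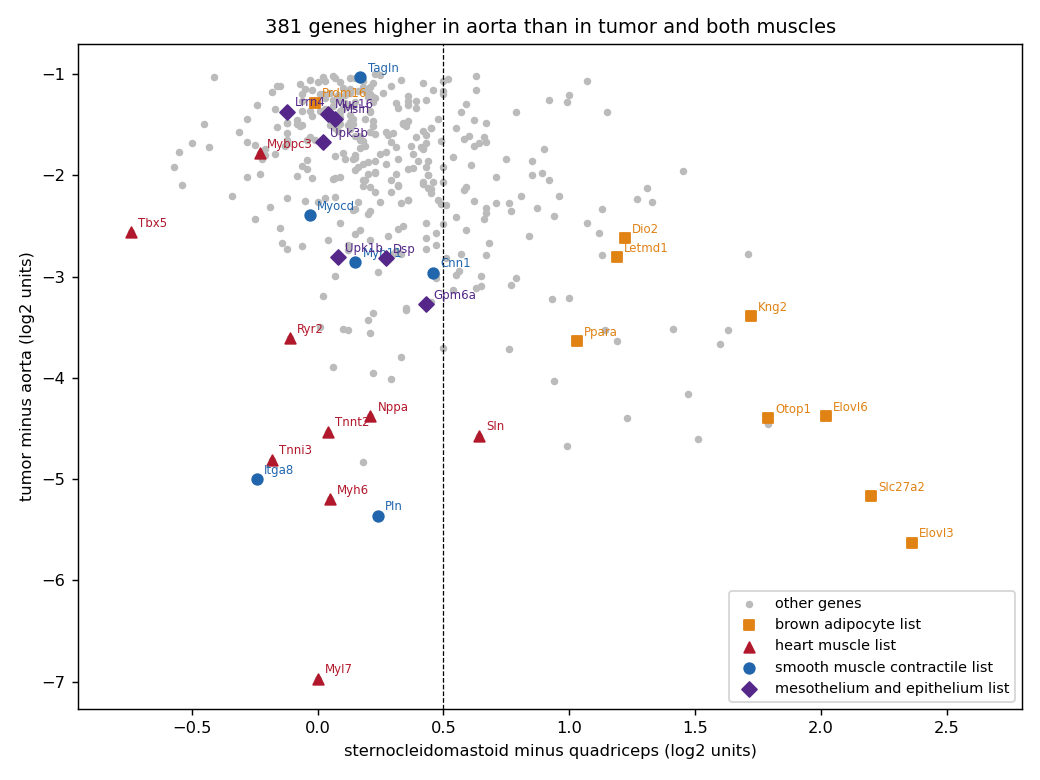
Tumor minus aorta difference (y axis, log2 units) against sternocleidomastoid minus quadriceps difference (x axis, log2 units) for the 381 genes higher in aorta than in tumors and both muscles, with members of 4 lists marked. Brown adipocyte genes lie to the right of the dashed line at 0.5 except Prdm16, and smooth muscle, mesothelial and most heart muscle genes lie to its left.

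Contractile genes of the vessel wall were lower in tumors than in aortas. Their median tumor minus quadriceps difference was 0.57 over 21 genes, beside -0.04 over all genes. The mean over the list, however, was 7.86 to 8.56 in tumors, 7.78 to 7.98 in quadriceps and 7.92 to 8.04 in sternocleidomastoid. By that measure tumors and muscles overlapped, with tumor 6 highest. The mean of the fixed markers Myh11, Acta2, Tagln, Cnn1 and Myocd did not overlap. It was 8.24 to 10.03 in tumors, 6.98 to 7.18 in quadriceps and 7.19 to 7.42 in sternocleidomastoid. Myh11, the smooth muscle myosin heavy chain, was 11.05, 11.41, 11.17 and 10.90 in aortas 1 to 4 and 7.53, 8.26 and 9.95 at the lowest, median and highest tumor. Only tumor 6 exceeded 8.38, and the groups did not overlap (difference -2.86 ± 0.31, limma adjusted p = 6.13e-07). Myocd, the coactivator that switches on smooth muscle genes, was 8.44, 8.95, 8.50 and 8.08 in aortas and 5.57, 6.03 and 7.02 in tumors, again highest in tumor 6 (-2.39 ± 0.21, adjusted p = 5.89e-08). The actin Acta2 changed far less. It was 12.34, 12.45, 12.35 and 12.21 in aortas and 11.37, 11.72 and 12.31 in tumors (-0.58 ± 0.14, adjusted p = 0.00263), with tumor 6 inside the aorta range, and it stayed 2.46 above quadriceps. The Acta2 call was lost without aortas 2 and 3 (-0.52, limma adjusted p = 0.0513), and its difference was -0.37 with quantile normalization. Of the 21 smooth muscle genes 12 fell, Cald1 (caldesmon) rose and the median was -0.78, beside -0.02 over all genes.

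Of the 381 genes of the aorta pattern, 16 were lower in tumors than in both muscles by the same limits, among them Pln, Pank1, Fam13a, Cytl1 and the brown adipocyte gene Ppara. A step from aorta through tumor to muscle marked 8 others, in which tumors were still over both muscles by at least 2-fold with adjusted p under 0.05. They included the smooth muscle genes Cnn1 (calponin), Tagln (transgelin), Csrp2 (a LIM protein of smooth muscle) and Kcnmb1, the channel subunit that tunes calcium-gated potassium current in arterial muscle. Tagln had means of 11.13 ± 0.22 (SD, n = 4) in aortas, 10.11 ± 0.65 (n = 7) in tumors and 7.71 in quadriceps, and its call against aorta was lost without aortas 1 and 2 (-0.89, limma adjusted p = 0.0536). Kcnmb1 was 9.90, 10.82, 9.99 and 9.97 in aortas and 6.58, 7.33 and 8.34 in tumors (-2.70 ± 0.26, limma adjusted p = 1.53e-07), with a quadriceps mean of 5.86. Acsl5, Acsf2 and Pam, which serve fatty acid activation and peptide amidation, also took this step. Phospholamban, Pln, which the smooth muscle list holds but which is also abundant in heart, took no such step: its tumor mean of 5.03 was dim, with differences of -1.28 from quadriceps and -5.36 from aorta. Elastin, Eln, was 10.13, 10.17, 9.73 and 7.98 in aortas 1 to 4 and 6.49, 7.17 and 9.39 in tumors. Aorta 4 was low and tumor 6 high, the groups overlapped, and the call (-1.87 ± 0.45, adjusted p = 0.00289) was lost without aortas 1 and 2, 1 and 3, or 2 and 3 (adjusted p from 0.0862 to 0.124).

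The atrial genes Myl7 and Nppa were low and even among tumors. Myl7, the atrial myosin light chain, was 11.14, 11.45, 10.94 and 11.78 in aortas and 4.17, 4.39 and 4.48 in tumors (-6.97 ± 0.13, limma adjusted p = 2.7e-17). Nppa, the atrial natriuretic peptide, was 10.30, 10.04, 9.65 and 10.13 in aortas and 5.49, 5.61 and 5.83 in tumors (-4.38 ± 0.11, adjusted p = 2.44e-15). No tumor came near an aorta in either gene. Sln and the light chain Myl4, also genes of the atrium, were less even. Sln ranged from 4.14 to 8.59 in tumors and from 10.49 to 11.20 in aortas, and Myl4 from 5.42 to 7.13 and from 6.97 to 7.56, where tumor 2 overlapped the aortas. Of 18 heart muscle genes 13 fell and none rose (median -2.17), with 9 in the aorta pattern, and the tumor minus quadriceps median was -0.14. The 5 that did not pass were Myh7, Myl3, Ankrd1, Bmp10 and Nkx2-5. Myh7 and Myl3 are also genes of slow skeletal muscle.

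Of the 10 largest genes of the aorta pattern outside the lists, 3 had narrow tumor values. Hamp, the iron hormone hepcidin, fell most among the genes of the aorta pattern in no list: 6.81, 8.05, 7.16 and 8.4 in aortas and 2.41, 2.83 and 3.08 in tumors (-4.83 ± 0.22, limma adjusted p = 2.68e-11), with sternocleidomastoid minus quadriceps of 0.18. Mybphl, a myosin-binding protein of atrial muscle, was 8.63, 8.83, 8.10 and 9.49 in aortas and 4.54, 4.77 and 5.13 in tumors (-3.95 ± 0.18, adjusted p = 1.96e-11). Tecrl, a reductase-like protein of heart muscle, fell by 4.01 ± 0.25. In each of these 3 genes aorta 4 was the highest aorta and the tumor mean was dim. Aorta 4 had the highest list means among aortas of both heart muscle genes (8.66) and brown adipocyte genes (10.03).

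Some aorta genes were even among tumors and did not follow the sternocleidomastoid difference. There were 86 genes of the 381 with a tumor range under 1 log2 unit and a sternocleidomastoid minus quadriceps difference under 0.5. Of the 97 genes at 0.5 or more, 12 had so narrow a tumor range. The share of all genes tested with such a range was not counted, so the 86 are a count and not a finding about these genes. Tumor means were dim in 94 of the 381 genes, and evenness near background cannot be read as a trait of a gene. Beside Hamp, Mybphl and Tecrl, which meet both limits, 10 of these genes in no list were singled out after their values were seen, and of them Sost, the Wnt inhibitor sclerostin, had the largest difference, with 8.80, 9.75, 8.98 and 8.26 in aortas and 4.99, 5.48 and 5.67 in tumors (-3.50 ± 0.20, limma adjusted p = 4.19e-10). For Sost aorta 2 was highest and aorta 4 lowest. Myh11, Myocd and Eln had the same highest and lowest aorta, but Kcnmb1 was lowest in aorta 1 (9.90). The tissue that Sost came from was not tested. Chrm2, the muscarinic receptor that slows the heart beat, and Kcnj3, a channel subunit it opens, fell by 2.95 ± 0.20 and 2.52 ± 0.20. Both were highest in aorta 4 (8.18 and 8.44), and as a mean over its probe sets Kcnj3 fell by 1.36. Tumor values of Chrm2 and Kcnj3 were at most 4.79 and 5.18, so both tumor means were dim. Fgf12, a modulator of sodium channels (-2.47 ± 0.20), Foxp2 (-2.05 ± 0.13) and Hhip, an inhibitor of hedgehog ligands (-2.02 ± 0.16), had dim tumor means. Xrcc6, the Ku70 subunit of DNA end joining, was 8.30, 8.37, 8.30 and 8.28 in aortas against 5.81, 6.43 and 6.57 in tumors and means of 6.82 and 7.13 in quadriceps and sternocleidomastoid (-1.99 ± 0.13, adjusted p = 1.59e-09).

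The other 7 of the 10 largest spread more among tumors. Slc36a2, an amino acid transporter of brown fat, was 11.31, 10.95, 11.25 and 11.18 in aortas and 5.55, 6.22 and 9.33 in tumors (-4.16 ± 0.65, limma adjusted p = 4.33e-05). Its highest tumors were 5, 4 and 6 (9.33, 8.28 and 8.10), and quadriceps 4 (9.01) stood above the other quadriceps arrays. Gys2, a glycogen synthase, Pank1, a kinase of coenzyme A synthesis, and Rgs7, a regulator of G proteins, fell by 4.67 ± 0.57, 4.60 ± 0.39 and 4.46 ± 0.69. All 3 were highest in tumor 5, and their sternocleidomastoid minus quadriceps differences were 0.99, 1.51 and 1.79. Tmem45b (-4.03 ± 0.81) and Fam13a (-3.79 ± 0.59) were highest in tumor 5 too, and Tmem45b reached 10.25 in tumor 5 against 10.49 to 11.15 in aortas. Cyp2b10, a cytochrome P450, fell by 4.40 ± 0.43 but was highest in tumor 1 (5.29) and lowest among aortas in aorta 1 (7.16). Adipoq, the hormone adiponectin of all fat cells, was 9.88, 9.67, 9.69 and 10 in aortas and 4.25, 6.15 and 10.01 in tumors. There the groups overlapped through tumor 5, and the call (-2.72 ± 0.84, adjusted p = 0.0154) was lost with the compared groups alone (0.0548), without any of 3 pairs of aortas (0.079 to 0.0904), and without tumors 1, 2, 4 and 7 (0.179). Of 18 white and general adipocyte genes 16 fell, and of 16 brown ones 14 fell, with medians of -2.73 and -3.81.

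Of 21 genes of mesothelium and epithelium 10 fell and 0 rose (median -0.63), and 7 were in the aorta pattern. Without aortas 2 and 3 the median was -0.33. Upk3b, a uroplakin of mesothelium, was 7.23, 6.82, 7.33 and 7.76 in aortas and 5.4, 5.61 and 5.80 in tumors (-1.67 ± 0.13, limma adjusted p = 1.28e-08), and mesothelin, Msln, fell by 1.44 ± 0.11. The groups did not overlap for either. Gpm6a (-3.27 ± 0.34), the desmosome protein Dsp (-2.82 ± 0.27) and Upk1b (-2.81 ± 0.16) fell more. Dsp is also a gene of heart muscle. The keratins Krt8, Krt18, Krt19 and Krt7, more general epithelial genes, did not pass the test.

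Nerve and lymphoid signals were uneven among the aortas. Of 17 genes of sympathetic and sensory neurons 8 fell and 0 rose (median -0.38), but only 1 fell without aortas 2 and 3, with a median of -0.02. Th, the first enzyme of noradrenaline synthesis, was 5.54, 6.62, 7.72 and 5.52 in aortas 1 to 4 and 5.26, 5.38 and 5.46 in tumors (-0.99 ± 0.27, limma adjusted p = 0.00723, and -0.17, adjusted p = 0.194, without aortas 2 and 3). Its call was also lost without tumors 1, 2, 4 and 7 (-0.92, limma adjusted p = 0.0682). The synaptic protein Snap25 (-1.29 ± 0.35) and the peptide Npy (-0.99 ± 0.33) lost their calls without aortas 2 and 3 as well, at -0.18 and 0.03. The Npy call was also lost without aorta 2 (-0.77, limma adjusted p = 0.106), without aorta 3 (-0.53, 0.144), without tumors 4 and 5 (0.0666), without tumors 1, 2, 4 and 7 (0.0738) and with the compared groups alone (0.083). Without aorta 3 Th was at -0.53 and Snap25 at -0.76, while the microtubule regulator Stmn2 (-1.98 ± 0.26) did not overlap between the groups. Leaving out 1 array at a time gave 3 to 11 lower genes in this list. Glycam1, a mucin of lymph node vessels, was 11.37, 10.88, 4.58 and 7.22 in aortas, against 4.17, 4.37 and 6.21 in tumors. Ptprc, the leukocyte antigen CD45, was also highest in aortas 1 and 2 (8.42 and 8.51) and had a tumor mean of 8.44. Its difference of 1.0 ± 0.41 (adjusted p = 0.0641) became 2.03 without those aortas (adjusted p = 0.000662). Glycam1, Th and Ptprc were singled out after their values were seen, Th and Ptprc also being members of lists. Fast skeletal muscle RNA was uneven among tumors and among aortas. In aortas 1 to 4 the fast skeletal genes Myh1 and Acta1 were 8.0, 3.78, 8.1 and 4.3, and 10.07, 5.65, 9.74 and 6.15. Both were thus high in aortas 1 and 3 only. Myh4, a fast myosin, was 5.23, 4.53, 5.75 and 4.90 in aortas and 4.25, 8.04 and 10.55 in tumors, with tumors 1, 2, 4 and 7 at 8.04 or more. Ckm, muscle creatine kinase, was 8.97, 7.98, 8.75 and 8.56 in aortas and 5.51, 9.07 and 10.87 in tumors (limma adjusted p = 0.827). Of 20 fast skeletal genes 0 rose and 1 fell, yet the median difference was 1.21. The list mean of the tumors spread from 5.48 to 9.83, and the median was -0.66, with 6 lower genes, without tumors 1, 2, 4 and 7. Without aortas 1 and 3 it was 1.91, with 3 higher genes.

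The 562 genes of the shared pattern were lower in tumors than in aorta and both muscles, and 525 were in no list. Mylk4, a myosin light chain kinase of striated muscle, was 8.60, 9.31, 9.10 and 8.84 in aortas and 4.40, 4.89 and 5.76 in tumors (-3.99 ± 0.21, limma adjusted p = 1.17e-10), with a sternocleidomastoid mean of 11.67. Inmt, an indole methyltransferase, was 8.89, 8.94, 9.59 and 9.77 in aortas and 4.65, 5.13 and 6.06 in tumors (-3.98 ± 0.25, adjusted p = 1.45e-09), and its muscle means of 9.11 and 9.10 were close to those of aorta. Acacb, the carboxylase that restrains fat oxidation, fell by 3.94 ± 0.36. Mlxipl, a carbohydrate-sensing transcription factor (-3.57 ± 0.65), Maob, a monoamine oxidase (-3.47 ± 0.53), Gsta4, a glutathione transferase (-3.31 ± 0.35), and Chpt1, of phosphatidylcholine synthesis (-3.28 ± 0.59), followed, together with Adhfe1, Ces1d and Mcrip2. Mlxipl, Adhfe1, Ces1d, Maob and Chpt1 had tumor SDs from 1.44 to 2.0, against 0.02 to 0.22 among aortas, and Inmt and Mylk4 had SDs of 0.57 and 0.46 in tumors.

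Several circadian clock genes differed between tumors and all normal tissues. In the feedback loop of the clock Arntl (Bmal1) and its partners bind E-boxes and switch on Per, Cry and Nr1d genes, whose products then repress it, and the factors Dbp, Tef and Hlf carry the rhythm to further genes. Of 18 measured genes 9 fell and 3 rose (median -0.46), and 7 were in the shared pattern beside 2.53% of all genes. Dbp was 8.73, 8.51, 9.05 and 8.88 in aortas and 5.78, 6.67 and 7.04 in tumors (-2.24 ± 0.17, limma adjusted p = 8.42e-09). Per3 was 8.16, 8.31, 8.4 and 8.62 in aortas and 6.06, 6.35 and 6.59 in tumors (-2.08 ± 0.11, adjusted p = 2.38e-10). Every tumor was under every aorta and every muscle for both genes.

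Arntl, which the Nr1d repressors hold down, moved in the opposite direction. It was 6.52, 6.09, 5.54 and 6.08 in aortas and 7.72, 8.06 and 8.47 in tumors (2.02 ± 0.16, limma adjusted p = 2.18e-08), and the muscles lay between, at means of 7.03 and 6.89. Tef (-1.91 ± 0.11, and -1.21 as a mean over its probe sets), Hlf (-1.65 ± 0.24), Ciart (-1.60 ± 0.26), Nr1d1 (-1.58 ± 0.29) and Nr1d2 (-1.54 ± 0.11) fell in the shared pattern, and Npas2, a partner of Arntl, rose by 1.28 ± 0.30. Clock (0.24), Per1 (-0.51), Cry1 (0.14) and Bhlhe40 (0.30) did not pass. The sources used here give no hour of tissue collection, and its part in these values was not tested.

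**Figure D3:**
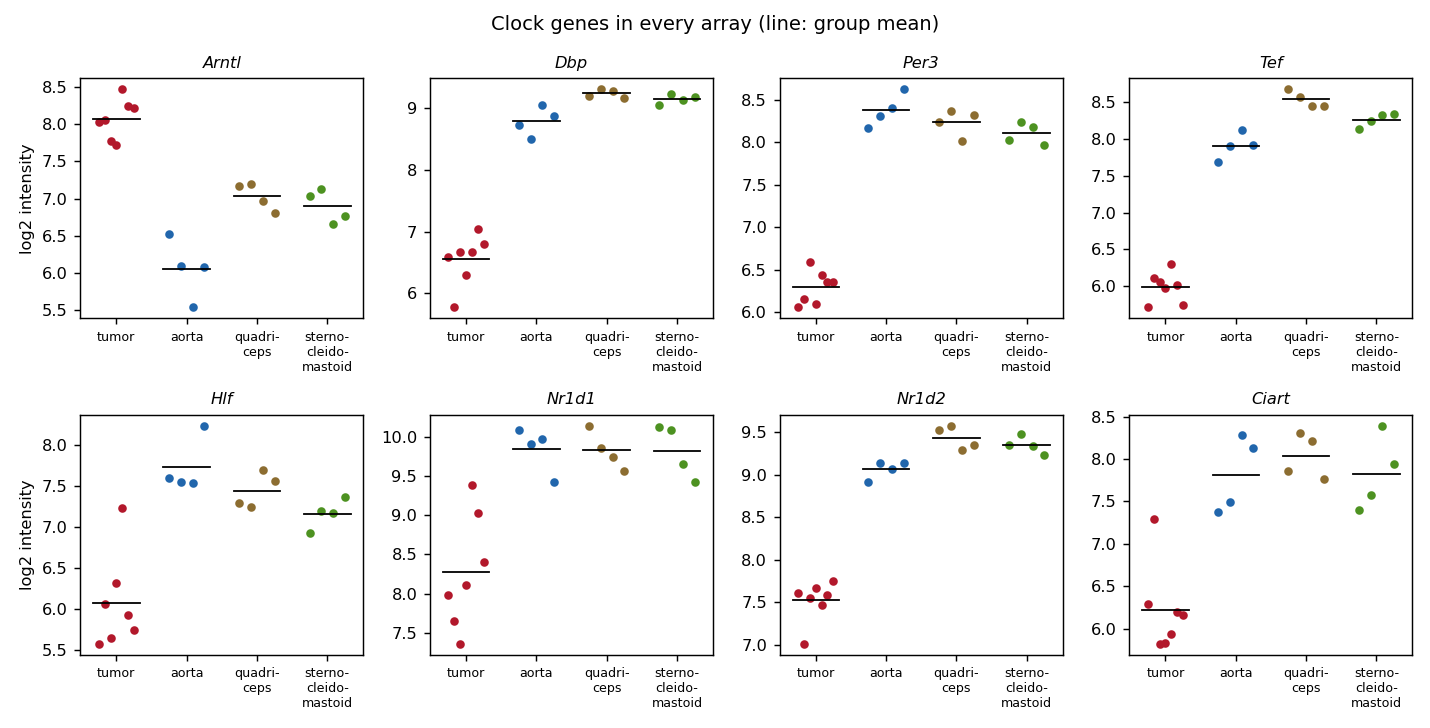
Log2 intensity (y axis) of 8 clock genes on each of the 19 arrays by group (x axis), with the group mean as a line. Arntl is highest in tumors (7.72 to 8.47), and the other 7 genes have their lowest group mean there.

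E-boxes in clock promoters are shown because Arntl binds them, and no link between a match and the differences above was tested. RefSeq promoters (build GRCm38.p6) matched 17 of the 18 measured genes, and the 250 bases before each gene start were searched for CACGTG, which reads the same on both strands. At least 1 E-box was found in 5 of the 17, beside 7.83% of all tested genes with a RefSeq promoter. Of the 7 genes in the shared pattern, 2 held one, Ciart and Tef. Per1, Cry1 and Bhlhe41 held one and did not pass the test. Ciart, on the minus strand at chr3:95882229-95882478, had E-boxes starting 116, 58 and 44 bases before its start. Tef had one on the plus strand at chr15:81811164-81811413, 138 bases before 1 of its starts. It had another at chr15:81802423-81802672, 127 bases before another start, which is not printed here. Per1 had one at chr11:69098699-69098948, 166 bases before its start. The E-boxes are in capitals and all sequences run 5′ to 3′.
Ciart: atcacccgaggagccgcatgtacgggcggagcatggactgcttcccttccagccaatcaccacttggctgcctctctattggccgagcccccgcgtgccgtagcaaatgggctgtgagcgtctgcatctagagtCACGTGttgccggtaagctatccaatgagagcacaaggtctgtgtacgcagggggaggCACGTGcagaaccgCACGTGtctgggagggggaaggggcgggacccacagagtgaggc
Tef: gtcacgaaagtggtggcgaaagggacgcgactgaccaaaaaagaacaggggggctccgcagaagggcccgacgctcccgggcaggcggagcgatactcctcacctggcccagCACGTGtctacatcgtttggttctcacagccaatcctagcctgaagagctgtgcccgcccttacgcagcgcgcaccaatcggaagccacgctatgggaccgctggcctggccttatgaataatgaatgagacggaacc
Per1: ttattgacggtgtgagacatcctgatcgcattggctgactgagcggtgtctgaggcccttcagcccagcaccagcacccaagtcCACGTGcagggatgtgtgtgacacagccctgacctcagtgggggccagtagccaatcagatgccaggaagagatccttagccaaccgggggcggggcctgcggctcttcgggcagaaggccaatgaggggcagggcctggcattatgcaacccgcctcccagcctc
A match describes these letters, and no match says only that they are not in this window.

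Of 19 cholesterol synthesis genes 11 fell and 1, the sterol carrier Stard4, rose (1.26 ± 0.14; median -0.59). The desaturase Sc5d fell by 2.06 ± 0.48, the sterol sensor partner Insig1 by 1.97 ± 0.38, squalene synthase Fdft1 by 1.83 ± 0.16 and Nsdhl by 1.41 ± 0.19. Sc5d and Insig1 were highest among tumors in tumor 5 (9.55 and 10.27), and Sc5d overlapped the aortas there. Of 20 transporters of amino acids, lactate and glucose 10 rose and 4 fell (median 0.34). Slc2a4, the insulin-regulated glucose transporter of fat and muscle, fell by 2.69 ± 0.31 in the shared pattern, whereas Slc2a3, a high-affinity glucose transporter, was at 2.02 ± 0.58. The Slc2a3 call was lost without aortas 1 and 3 or 1 and 2 (limma adjusted p = 0.0681 and 0.0632), and without tumors 1, 2, 4 and 7 (0.61, adjusted p = 0.214). Slc7a5 and Slc7a11, carriers of large neutral amino acids and of cystine, rose by 2.09 ± 0.39 and 2.02 ± 0.49, and by 1.33 and 0.89 without tumors 1, 2, 4 and 7. As a mean over its probe sets Slc7a11 rose by 1.05. Of 26 nuclear receptors 12 fell and 7 rose (median -0.41), with Thrb (-2.04 ± 0.32), Rxrg (-1.78 ± 0.33) and Esr1 (-1.63 ± 0.42) in the shared pattern and Nr2f2 rising by 1.33 ± 0.20. Esr1 lay above every aorta in tumor 5 (8.76), and its call was lost without tumors 1, 2, 4 and 7 (-1.02, limma adjusted p = 0.104). Of 23 genes of serine, one-carbon and nucleotide synthesis 8 were higher and 7 lower (median 0.21). The serine hydroxymethyltransferase Shmt1 fell by 1.72 ± 0.16, Mthfd1l, of mitochondrial folate metabolism, was at 1.16 ± 0.31, and Ctps and Tyms, of pyrimidine synthesis, rose by 1.01 ± 0.11 and 1.0 ± 0.18. The Mthfd1l call was lost without aortas 1 and 3 or 1 and 2 (limma adjusted p = 0.0683 and 0.0776), and without tumors 1, 2, 4 and 7 (0.47, adjusted p = 0.127).

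Increases over every normal tissue formed the largest pattern, with aorta means dim in 223 of its 1044 genes. Among the 10 largest outside the lists, Clca2, a regulator of chloride channels, was 4.25, 4.52, 4.54 and 4.46 in aortas and 7.06, 8.09 and 9.66 in tumors (3.75 ± 0.33, limma adjusted p = 5.57e-08). Bcl6b, a transcriptional repressor, was 6.30, 6.38, 6.57 and 6.82 in aortas and 9.30, 9.88 and 11.02 in tumors (3.56 ± 0.27, adjusted p = 1.06e-08). Plk2, a kinase induced by stress, was 6.53, 6.30, 6.31 and 5.99 against 8.86, 10.03 and 10.51 (3.60 ± 0.22, adjusted p = 1.15e-09). In Clca2, Bcl6b and Plk2 no tumor came within 2 log2 units of an aorta. Apol11b, Timp1, Plaur, Ccna2 and Cdk1, also among the 10, each had a tumor closer to an aorta than that. Hal, the histidine ammonia-lyase, rose by 3.51 ± 0.24 from a dim aorta mean of 4.80. Apol11b, an apolipoprotein L gene, rose by 3.62 ± 0.67 and varied most, from 5.21 in tumor 3 to 11.25 in tumor 2, with a difference of 2.25 without tumors 1, 2, 4 and 7. Timp1, an inhibitor of matrix proteases, was lowest in tumors 5 and 6 (8.29 and 8.44), with a median of 10.66. Apln, Plaur, Ccna2 and Cdk1 completed the 10.

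**Figure D4:**
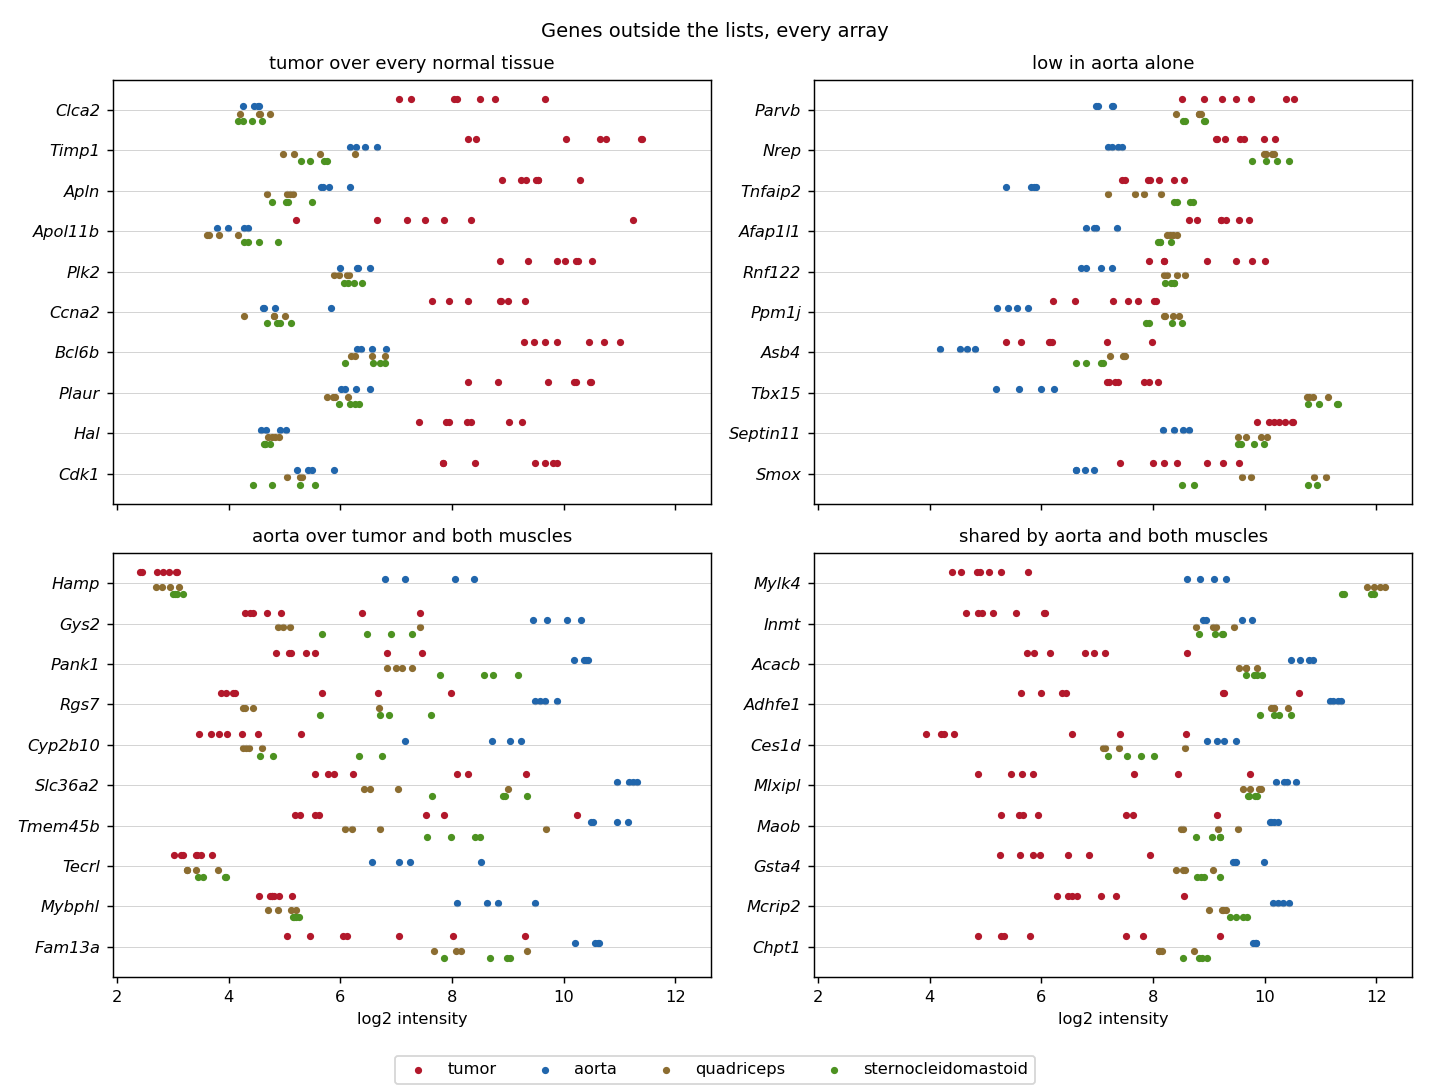
Log2 intensity (x axis) on every array of the 10 largest genes outside the lists in each of 4 patterns, with the groups in 4 colours. In the pattern of aorta over tumor and both muscles, the tumors of Hamp, Tecrl and Mybphl span under 1 log2 unit and those of the other 7 genes more.

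The 47 genes low in aorta alone were led by Parvb, an integrin-linked actin adaptor, with 7.28, 7.26, 6.98 and 7.02 in aortas and 8.51, 9.48 and 10.52 in tumors (2.41 ± 0.28, limma adjusted p = 1.62e-06). Its quadriceps mean was 8.73. Nrep, a gene of regenerating nerve, was 7.26, 7.37, 7.19 and 7.45 in aortas and 9.12, 9.56 and 10.19 in tumors (2.24 ± 0.18, adjusted p = 1.38e-08), under its muscle means of 10.08 and 10.12. Tbx15, a T-box factor of muscle and fat, had means of 5.75 in aortas, 7.56 in tumors and 10.89 in quadriceps. Tnfaip2, Afap1l1, Rnf122, Ppm1j, Asb4, Septin11 and Smox were the others among the 10 largest, with differences from 1.80 to 2.24. The Smox call was lost without aortas 1 and 3 (1.76, limma adjusted p = 0.0523) and without tumors 1, 2, 4 and 7 (1.19, adjusted p = 0.108).

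Lists of endothelial subtypes gave different counts. Of 14 venous genes 7 rose and 0 fell (median 0.65). The receptor Ephb4, which marks veins, was 7.82, 7.75, 7.80 and 7.78 in aortas and 9.06, 9.82 and 10.46 in tumors (1.97 ± 0.21, limma adjusted p = 6.46e-07), without overlap. Icam1, an adhesion molecule for leukocytes, and Nr2f2, the factor that sets venous fate, rose by 1.42 ± 0.19 and 1.33 ± 0.20. Selp, the P-selectin of activated endothelium, was at 1.55 ± 0.59 (limma adjusted p = 0.046). Its call was lost without any 1 aorta (0.0737 to 0.098), without any 1 muscle array (0.054 to 0.0549), without tumor 1, 2, 4, 5 or 7 (0.0562 to 0.0885), with the compared groups alone (0.133), with a trended, robust variance (0.0613) and with housekeeping centring (0.0502). Without tumors 1, 2, 4 and 7 Selp was at 0.29 (adjusted p = 0.577). Of 19 arterial genes 5 rose and 5 fell (median 0.22), and Cytl1, a secreted protein, was 9.56, 10.01, 10.19 and 9.40 in aortas and 6.01, 6.43 and 6.93 in tumors (-3.31 ± 0.20, adjusted p = 6.15e-10), lower than in both muscles too. Alox12, a lipoxygenase that platelets also hold, rose by 2.23 ± 0.61 (0.85 without tumors 1, 2, 4 and 7, and call lost without aortas 1 and 3 at 1.99, limma adjusted p = 0.0856), and glutamine synthetase, Glul, also a gene of fat and muscle, fell by 2.12 ± 0.28. Of 18 capillary genes 6 fell and 4 rose (median -0.32), led by Timp4 (-3.32 ± 0.65), Cd300lg (-2.22 ± 0.35) and the water channel Aqp1 (-2.14 ± 0.16). All 3 were in the pattern shared with muscle. The carbonic anhydrase Car4 was at -1.68 ± 0.57 (limma adjusted p = 0.0274, 0.0618 to 0.0697 without aorta 1, 2 or 3, 0.05 and 0.0509 without tumor 2 or 6, and 0.0878 with the compared groups alone). Timp4 reached 8.46 and 8.06 in tumors 5 and 6 and lay at 5.34 or less in the others. Without tumors 1, 2, 4 and 7 the differences were -1.88 for Timp4 and -1.24 for Cd300lg. Differences between the subtype lists were not tested.

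Of 35 receptors and channels that set arterial tone 11 fell and 6 rose (median -0.19). Beside Kcnmb1, its channel partner Kcnma1 fell by 1.84 ± 0.39 (by 0.96 as a mean over its probe sets, and by 2.83 without tumors 1, 2, 4 and 7) and the prostaglandin receptor Ptger3 by 2.01 ± 0.33, while the cation channel Trpc6 rose by 1.52 ± 0.38. The Trpc6 call was lost without aortas 1 and 3 (1.37, limma adjusted p = 0.0618). Receptor tyrosine kinases and their ligands had 14 higher and 12 lower genes of 42 (median 0.00, and -0.09 when centred on housekeeping genes, with 8 higher and 13 lower). Ntrk3, the neurotrophin receptor, was 10.09, 9.83, 10.18 and 9.63 in aortas and 5.0, 5.37 and 9.21 in tumors (-3.53 ± 0.67, adjusted p = 0.000307). It was highest in tumor 5, and sternocleidomastoid exceeded quadriceps by 1.63, as for brown adipocyte genes. Erbb4 and Fgfr2 fell by 2.43 ± 0.18 and 1.99 ± 0.39, and the ephrin receptor Epha2 rose by 1.89 ± 0.11. Of 20 Schwann cell and nerve genes 6 fell and 2 rose (median -0.22). S100b, also a gene of fat cells, fell by 1.86 ± 0.39, the potassium channel Kcna1 fell by 1.03 ± 0.15, and the factor Egr2 and the endothelin receptor Ednrb rose by 1.35 ± 0.24 and 1.22 ± 0.17. Sox10, the defining factor of Schwann cells, was at 5.69 in tumors and 5.85 in aortas (adjusted p = 0.339).

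Of 29 proteoglycan and hyaluronan genes 11 rose and 8 fell (median 0.25): asporin, Aspn, rose by 2.07 ± 0.24, the hyaluronan-binding protein Tnfaip6 by 1.81 ± 0.49 and the hyaluronan synthase Has2 by 1.58 ± 0.33, while osteoglycin, Ogn, fell by 1.57 ± 0.20. The Tnfaip6 call was lost without any of 3 pairs of aortas (limma adjusted p from 0.0546 to 0.0785), and without tumors 1, 2, 4 and 7 Tnfaip6 was at 0.52 and Has2 at 0.74. Of 20 genes of cartilage and valve matrix 3 rose and 4 fell (median -0.12), shares near those of all genes. Cilp rose by 2.30 ± 0.47, Chil1 rose by 1.35 ± 0.26 the cartilage factor Sox6 fell by 1.57 ± 0.30 and the cartilage proteoglycan Acan fell by 0.65 ± 0.14. Without aortas 2 and 3 the Acan call was lost (-0.41, limma adjusted p = 0.0701), and without tumors 1, 2, 4 and 7 Cilp was at 1.25.

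Of 27 actin dynamics and motility genes 22 rose and 0 fell (median 0.89). The bundling protein fascin, Fscn1, was 7.06, 7.0, 6.80 and 6.73 in aortas and 8.72, 9.43 and 10.17 in tumors (2.57 ± 0.20, limma adjusted p = 1.44e-08), and the F-actin-binding protein Cotl1, the formin Diaph3 and the membrane linker Marcks rose by 1.94 ± 0.22, 1.87 ± 0.20 and 1.79 ± 0.12. Of 29 ribosome biogenesis genes 16 rose and 0 fell (median 0.40), led by Mybbp1a (1.03 ± 0.20), Nop58 (0.96 ± 0.16), Nop56 (0.85 ± 0.14) and Npm1 (0.83 ± 0.21), and 5 to 9 rose without a pair of aortas (1 and 3, 2 and 3, or 1 and 2). Of 27 genes of the unfolded protein and integrated stress responses 16 rose and 4 fell (median 0.44), with Ddit4, a stress-induced brake on growth signalling, at 2.11 ± 0.30, the factor Atf3 at 1.38 ± 0.35, Sdf2l1 at 1.17 ± 0.19 and the lipoprotein receptor Vldlr at -1.67 ± 0.38. The calls of Npm1 and Atf3 were lost without aortas 1 and 3 (limma adjusted p = 0.087 and 0.068), and Atf3 was at 0.67 without tumors 1, 2, 4 and 7. Of 26 lysosome genes 9 rose and 3 fell (median 0.04, and -0.05 when centred on housekeeping genes), led by the cathepsins Ctss (2.03 ± 0.31) and Ctsk (1.71 ± 0.23), Gpnmb (1.57 ± 0.36) and the proton pump subunit Atp6v0d2 (1.42 ± 0.39). Atp6v0d2 was highest in tumor 5 (7.02), and its call was lost without any of 3 pairs of aortas (limma adjusted p from 0.0541 to 0.0647). Of 26 genes of the Bcl2 family and caspases 13 rose and 2 fell (median 0.39), among them the death receptor Tnfrsf10b (2.22 ± 0.28), the apoptosome scaffold Apaf1 (1.88 ± 0.19), Casp8 (1.68 ± 0.18) and Casp1 (1.43 ± 0.21). Of the 12 housekeeping genes used for scaling, 5 rose and 2 fell (median 0.19), with Sdha at -1.87 ± 0.21, Tfrc at -1.49 ± 0.26, Actb at 1.44 ± 0.12 and Ywhaz at 1.21 ± 0.13.

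Of 28 immune checkpoint and costimulation genes 14 rose and 3 fell (median 0.48), with Tnfrsf9 (1.97 ± 0.46), Cd40 (1.92 ± 0.25), Vsir (1.63 ± 0.19) and Cd276 (1.55 ± 0.27) in front. Tnfrsf9 was under the aortas in tumor 6 (5.16), and without tumors 1, 2, 4 and 7 its call was lost (1.0, limma adjusted p = 0.0638), Cd276 was at 0.97 and the median of the list was 0.23. Of 20 sensors of foreign nucleic acid 10 rose and 1 fell (median 0.42). Sting1, the adaptor for cytosolic DNA, rose by 1.98 ± 0.30, whereas Mavs, the adaptor for cytosolic RNA, fell by 1.59 ± 0.18. The ligase Trim25 and the receptor Tlr3 rose by 1.30 ± 0.13 and 1.09 ± 0.20. Of 22 complement genes 9 rose and 2 fell (median 0.41): the receptors C3ar1 and Vsig4 rose by 1.92 ± 0.28 and 1.91 ± 0.33 and C1qb rose by 1.71 ± 0.24. C7, of the membrane attack complex, was 7.92, 8.03, 8.42 and 9.41 in aortas and 4.37, 4.51 and 5.75 in tumors (-3.59 ± 0.60, limma adjusted p = 9.69e-05). Of 15 dendritic cell genes 5 rose and 2 fell (median 0.18), led by Fscn1, which is also in the actin list, Itgax (1.68 ± 0.21) and Irf8 (1.37 ± 0.28, and 0.89 as a mean over its probe sets). Of 4 markers fixed for macrophages, Adgre1, Csf1r and Cd68 rose, and the leukocyte antigen Ptprc did not pass the test. The mean of these 4 markers was 8.50 to 9.70 in tumors and 7.06 to 7.86 in aortas. Their part in the immune lists was not tested.

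**Figure D5:**
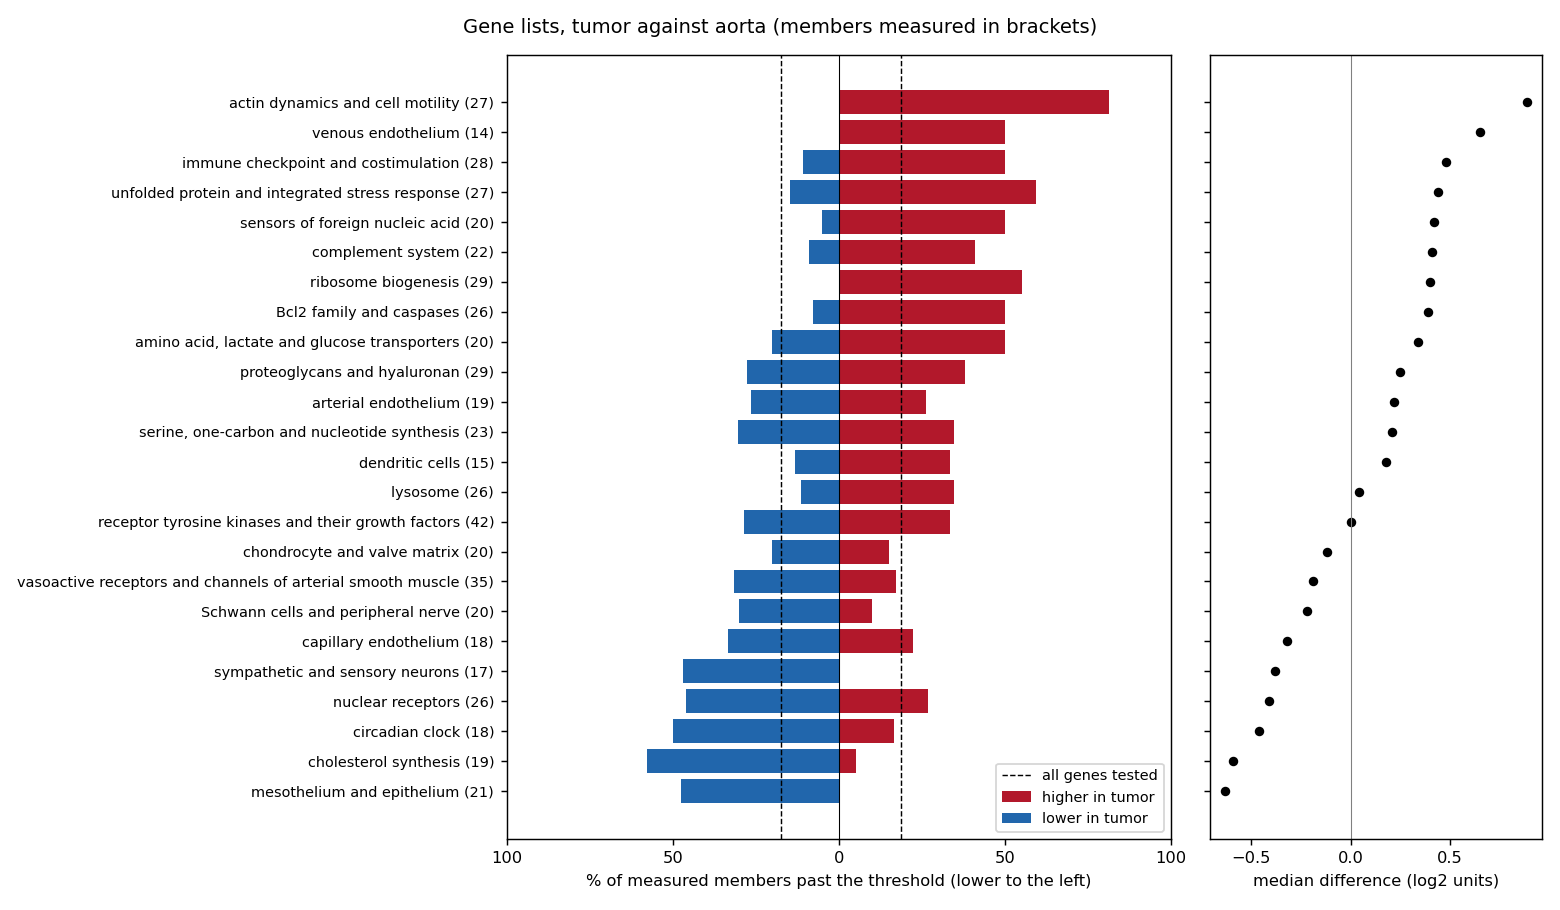
Share of measured members that were higher or lower in tumors at a limma adjusted p under 0.05 (left panel, percent, with lower drawn to the left) and the median tumor minus aorta difference (right panel, log2 units) for 24 gene lists. Dashed lines mark the shares over all genes tested, 18.6% higher and 17.5% lower, and actin genes have the highest median, 0.89.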

How the data were processed

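Total RNA from 7 angiosarcomas, 4 aortas, 4 quadriceps and 4 sternocleidomastoid muscles was isolated (miRNeasy kit) and hybridised as biotinylated cRNA to Affymetrix arrays, per the labels' protocols. The deposited values are log2 intensities (1.595 to 13.778, array medians 5.347 to 5.477). The submitters' processing notes name Partek 6.6, and the normalization is not given in the sources used here. No further scaling was applied.

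Of 41345 probe sets, 23521 carried 1 symbol. The one with the highest mean over 19 arrays was kept for each of 22180 genes, 1082 of which had several. Group means were fitted to all 19 arrays with limma 3.58.1 (R 4.3.3, eBayes, two-sided), with Benjamini-Hochberg adjustment over all genes at 0.05. Every difference ± value is a log2 difference with its SE, and adjusted p-values beside differences are from this fit. Patterns required absolute differences of at least 1 log2 unit and adjusted p under 0.05 in each contrast. Tables used Python 3.11.15, pandas 2.3.3 and matplotlib 3.10.9. The pipeline was tested on simulated data.

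The comparison, gene lists and patterns were chosen with earlier results of these data known. Named genes were, per pattern, the 10 with the largest difference and without overlap of tumor and aorta arrays, leaving out listed genes, predicted names and 16 genes described for the series before, and per list up to 4 called members. Other genes were named after their values were seen, except the 11 tissue genes given in every sample. Alternatives were 3 scalings, dim genes left out, means over probe sets, other variance models, thresholds, and arrays left out.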

Additional observations from a re-analysis of the deposited data

Results flagged for a closer look

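Of the tumor and aorta groups examined gene by gene and list by list, 22 held an array that stood far from the others of its group. Chance flags about 1 in 20 groups, and 458 groups were examined, so the 22 are about as many as chance gives. The arrays below are listed as a description, and no single flag can be read as a trait of its array. Causes were not tested.

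Tumor 6 was high for Myh11 (9.95), for the mean of the smooth muscle contractile list (8.56) and for Alb (6.14). Tumor 5 was high for Gpm6a (6.68) and low for Vsig4 (4.60) and Actb (10.57). Tumor 2 was high for Egr2 (8.71), Atf3 (10.73), Tfrc (8.18) and Myl4 (7.13). Tumor 3 was high for Marcks (10.31), Cdh19 (8.09) and the mean of the Bcl2 family and caspases list (7.40), and low for Sost (4.99) and Fgf12 (4.17). Tumor 4 was high for Glycam1 (6.21).

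Among aortas, aorta 2 was low for Tnfaip2 (5.37) and for the mean of the mesothelium and epithelium list (5.77) and high for Kcnmb1 (10.82). Aorta 4 was high for Gsta4 (9.99) and Cidea (12.19), and aorta 3 was high for Aqp1 (10.37).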

How the results depend on the processing

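Under the 3 scalings, without dim genes, with means over probe sets, with other variance models, and at an adjusted p of 0.01, all 6 counts (genes higher in tumor than aorta, genes lower in tumor than aorta and the 4 patterns) stayed within 1.5 times their values, as did the higher and lower counts with the compared groups alone. Size limits moved them. A minimum 2-fold difference left 1261 higher and 1308 lower genes. With a class minimum of 0.5 log2 units, 2267 genes were tumor over every normal tissue, 233 low in aorta alone, 873 aorta over tumor and both muscles and 1292 shared by aorta and both muscles, and with 2 log2 units 184, 2, 94 and 66. Without 1 array at a time the counts ranged from 3607 to 4275 higher, 3444 to 4002 lower, and 975 to 1107, 42 to 56, 316 to 436 and 521 to 628 in the patterns.

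Without tumors 4 and 5, the pattern of aorta over tumor and both muscles held 441 genes. Alternatives chosen after seeing the data left out pairs of aortas or tumors 1, 2, 4 and 7 and gave 2902 to 3774 higher and 2939 to 3197 lower genes. Signs turned for Alb (0.29) and Npy (0.03) without aortas 2 and 3, and for Myh4 (-0.66), Myh1 (-0.55), Acta1 (-0.18), Lep (0.36) and Vwf (-0.76) without tumors 1, 2, 4 and 7. They also turned for Vwf (-0.05) without tumor 7 and for Ckm without tumor 6 (0.11), tumors 4 and 5 (0.14), and aortas 1 and 3 (0.03), its values without 1 array ranging from -0.69 without tumor 2 to 0.20 without tumor 5. Causes were not tested. No paired analysis was possible because the labels pair no samples across groups. Dim signal limits differences of genes near background.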
